A study of Mus musculus with 59 samples.

Results

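Of 32 genes of glycolysis and of the response to low oxygen, 30 were measured among 18194 genes that had at least 1 probe set annotated to a single symbol on the Affymetrix Mouse Genome 430 2.0 array. Each gene was read from 1 probe set, the one with the highest mean signal, and Gpi1 and Eno1 had no such probe set. The 59 arrays came from C57BL/6 mice whose mothers were dosed by mouth once a day on embryonic days E12.5, E13.5 and E14.5. The dose was 0.5% methylcellulose (MC, the vehicle), valproic acid at 300 mg/kg in that vehicle (VPA, an anticonvulsant that also inhibits histone deacetylases) or valpromide at 300 mg/kg (VPM, the amide of VPA). All groups therefore shared the route and days of dosing of the dam, while MC, VPA and VPM differed in what was given.

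The first set was the whole telencephalon at E14.5, taken 3 hours after the last dose, with 3 arrays each of MC, VPA and VPM. Hippocampus and forebrain at E18.5 had 3 arrays for each of those 3 groups. Adult male offspring of 12 to 13 weeks gave hippocampus and cortex in 4 groups of 3 arrays: MC, VPA, and each of these with a running wheel after weaning (MC+RW, VPA+RW). A separate set of male hippocampus at postnatal day 84 (P84) had 4 MC and 4 VPA arrays, giving 19 groups in all. Litters and dams were not named in the labels, so p-values measured only the spread between these samples.

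Glycolysis splits glucose into pyruvate in the cytosol: hexokinase traps the sugar, phosphofructokinase sets the pace, and lactate dehydrogenase regenerates the cofactor when pyruvate does not enter mitochondria. The hypoxia-inducible factors (HIF) bind a short core motif near many of these genes, and oxygen-dependent prolyl hydroxylases mark the HIF alpha subunits for destruction, so that HIF-1 targets rise when oxygen falls. In brain, dividing progenitors are known for high aerobic glycolysis, whereas mature neurons and astrocytes use different isoforms of the same enzymes.

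The HIF core motif was read as ACGTG or GCGTG on either strand in the 250 bases before each start site, because the set includes known HIF targets and pathway neighbours that moved differently. Of the 32 genes, 30 matched a RefSeq promoter (GRCm38.p6), the exceptions being Epas1 and Ndrg1. They gave 46 windows, of which 37 held the motif (27 of 30 genes), or 80.4%, against 38.6% of 32851 windows of the same length over all genes. The median G+C content was 61% in the members' windows and 52.4% in all windows, and its part in that difference was not tested. ACGTG occurred in 50% of the members' windows and 16.6% of all windows, and GCGTG in 56.5% and 28.2%. The palindrome CACGTG, which counts as ACGTG on both strands, was in 13.0% and 6.02%. Windows of the same gene can overlap and share letters, as for Eno1, Aldoa and Pfkm. No share per gene was counted over all genes to set beside the 27 of 30.

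The promoters of 5 genes are shown because they carry the contrast of the E14.5 results: Hk2, Pfkp, Bnip3 and Eno2 rose about 2-fold with VPA, and Ldha did not pass the test. Capitals mark ACGTG or GCGTG in either orientation, and each sequence runs 5′ to 3′ on the gene's strand. Hk2 (minus strand, chr6:82774455-82774704) held 2 matches, Pfkp (minus strand, chr13:6648772-6649021) 3, Bnip3 (minus strand, chr7:138909507-138909756) 5, Eno2 (minus strand, chr6:124769674-124769923) 0 and the first start of Ldha (plus strand, chr7:46845554-46845803) 5.
Hk2: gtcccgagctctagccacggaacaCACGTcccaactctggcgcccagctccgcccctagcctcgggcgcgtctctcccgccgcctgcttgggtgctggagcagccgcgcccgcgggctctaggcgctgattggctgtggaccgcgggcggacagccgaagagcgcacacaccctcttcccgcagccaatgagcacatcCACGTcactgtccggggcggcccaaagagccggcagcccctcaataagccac
Pfkp: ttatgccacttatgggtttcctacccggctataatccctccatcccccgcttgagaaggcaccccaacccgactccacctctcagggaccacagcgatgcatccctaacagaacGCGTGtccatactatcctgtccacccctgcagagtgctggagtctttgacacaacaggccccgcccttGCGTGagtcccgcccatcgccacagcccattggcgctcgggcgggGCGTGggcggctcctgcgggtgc
Bnip3: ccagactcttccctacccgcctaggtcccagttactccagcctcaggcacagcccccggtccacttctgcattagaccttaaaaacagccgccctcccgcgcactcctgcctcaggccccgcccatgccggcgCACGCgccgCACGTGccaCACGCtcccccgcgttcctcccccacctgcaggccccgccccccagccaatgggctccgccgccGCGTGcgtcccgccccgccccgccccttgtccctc
Eno2: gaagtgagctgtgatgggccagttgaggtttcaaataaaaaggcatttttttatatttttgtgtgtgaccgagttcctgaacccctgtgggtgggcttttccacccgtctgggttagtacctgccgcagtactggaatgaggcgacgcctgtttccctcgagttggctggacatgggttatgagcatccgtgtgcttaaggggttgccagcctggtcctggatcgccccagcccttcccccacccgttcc
Ldha: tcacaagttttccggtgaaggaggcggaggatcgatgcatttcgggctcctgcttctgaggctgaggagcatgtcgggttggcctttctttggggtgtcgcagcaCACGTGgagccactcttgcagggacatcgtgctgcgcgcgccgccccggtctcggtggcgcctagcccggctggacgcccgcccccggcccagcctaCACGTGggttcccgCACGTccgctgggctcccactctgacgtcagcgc
A match is a description of the letters, and Eno2 had none in this window. The 5 matches each of Bnip3 and Ldha count every CACGTG on both strands, with 1 CACGTG in Bnip3 and 2 in Ldha. No link between matches and responses was tested.

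Array scaling and marker lists were checked first. Signals were scaled so that every array had a 2% trimmed mean of 500, from deposited values of 198 to 419, and 18.2% to 38.0% of probe sets per array lay at or under a floor of 32. Of 1711 array pairs none was identical. The neuron marker list summed to between 39796 and 51615 over the E14.5 arrays, and the astrocyte list rose from 7566 to 8888 in E18.5 MC forebrain to 34250 to 37076 in adult MC cortex. VPM replicate 3 at E14.5 stood apart with a choroid plexus sum of 20403, against 232 to 420 in the other E14.5 arrays. In E18.5 forebrain the choroid plexus sum was 17917 to 25604 with MC, 515 to 4828 with VPA and 20296 to 24208 with VPM, and E18.5 hippocampus arrays ranged from 997 to 29986. By Xist and Y-linked genes, 1 MC, 2 VPA and 2 VPM samples at E14.5 were female. In E18.5 hippocampus 0 MC, 2 VPA and 1 VPM samples were female, and in E18.5 forebrain 2 MC, 1 VPA and 1 VPM. In whole tissue, fewer cells of a type and less RNA per cell cannot be told apart.

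At E14.5, 3 hours after the third dose, VPA raised 15 and lowered 3 of the 29 members tested against MC, and 11 did not pass (limma, Benjamini-Hochberg adjusted p under 0.05 over 11068 genes). Hk2, Pfkp and Eno2 rose about 2-fold, as did Bnip3, while Pfkfb3 fell by 0.94 on the log2 scale and the lactate dehydrogenases, Pkm, Pfkl and Pfkm did not pass. The background was large, since 53.8% of all genes passed, 27% higher and 26.8% lower. The members' share in either direction was therefore 18 of 29 against that 53.8%, and their median log2 difference was 0.22 against -0.0030 over all genes tested. P4ha2 is counted here although it passed the filter on low signal (100 or more in 3 arrays) through its VPA arrays alone. With signals as deposited Hif1a, Pdk3, Aldoa, Ddit4 and Pgam1 did not pass (adjusted p 0.0686 to 0.124). VPA and MC arrays did not overlap for 19 of 29 members, against 60.2% of all genes.

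**Figure D1:**
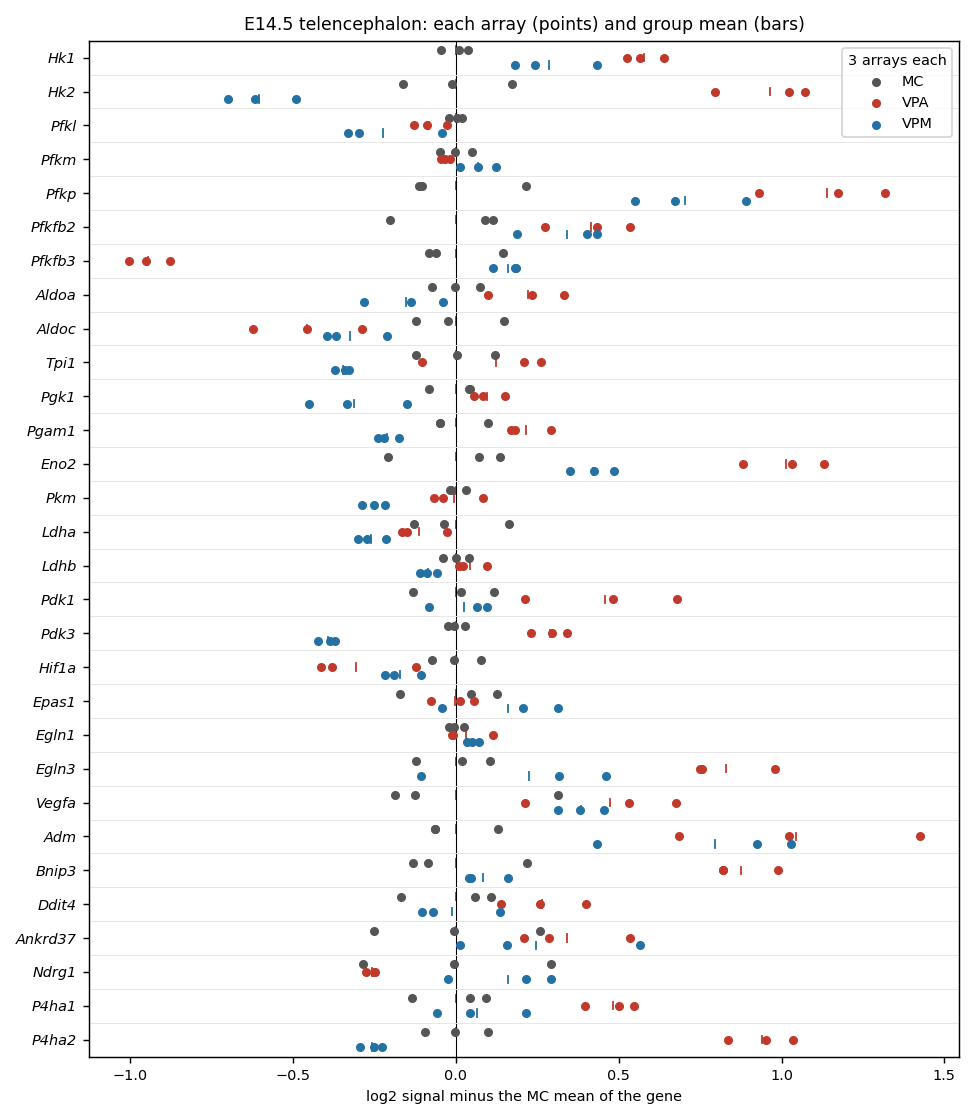
Log2 signal of each E14.5 array minus the gene's MC mean (x axis) for the 30 measured members (y axis, in pathway order), with points for the 3 MC, 3 VPA and 3 VPM arrays and bars for group means. Signals under 32 are drawn at 32, which sets 2 of the 3 Adm MC points; Hk2 lies on opposite sides of MC with VPA (0.96) and VPM (-0.60), and Pfkfb3 is low in the VPA arrays alone (-0.94).

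Both hexokinases, which phosphorylate glucose as it enters the cell, rose with VPA. Hk2, the inducible form, gave scaled signals of 509, 642 and 564 in the MC arrays and 989, 1197 and 1157 in the VPA arrays. Every VPA array was above every MC array, and the log2 difference was 0.96 or 1.95-fold (95% interval 0.73 to 1.20, adjusted p = 1.78e-05). Hk1, the constitutive brain form, read 2119.5, 2203 and 2245 with MC and 3411, 3152 and 3242 with VPA. These groups did not overlap either, at 1.49-fold (log2 0.58, 95% interval 0.43 to 0.73, adjusted p = 2.94e-05).

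Of the 3 phosphofructokinases, whose product commits the sugar to glycolysis, the platelet-type Pfkp alone passed the test. Its signal was 295, 237 and 235 with MC and 633, 485 and 573 with VPA, with no overlap, a 2.2-fold rise (log2 1.14, 95% interval 0.85 to 1.44, adjusted p = 2.74e-05). The liver-type Pfkl differed by -0.081 (adjusted p = 0.381) and the muscle-type Pfkm by -0.032 (adjusted p = 0.645). Their intervals, -0.24 to 0.081 and -0.15 to 0.087, lay far from the change in Pfkp, and no test of the isoforms against each other was run.

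Of the enzymes that make and break fructose-2,6-bisphosphate, the strongest activator of phosphofructokinase, the 2 members moved in opposite directions. Pfkfb3, the form with the highest kinase activity and a known HIF target, read 785, 669.9 and 679 with MC and 386, 354 and 367 with VPA. All VPA arrays were low, without overlap, at 1.92-fold under MC (log2 -0.94, 95% interval -1.13 to -0.76, adjusted p = 3.88e-06). Pfkfb2 read 517, 415 and 509 with MC and 646, 579 and 694 with VPA, higher in every VPA array (log2 0.41, 95% interval 0.17 to 0.66, adjusted p = 0.0079). A second Pfkfb3 probe set also fell (log2 -0.62), whereas 2 further Pfkfb2 probe sets did not pass (log2 0.38 and 0.15).

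Aldolases cleave the 6-carbon sugar, and the forms diverged. Aldoc, typical of astrocytes and radial glia, read 5367, 6469.96 and 5746 with MC and 3796, 4782 and 4261 with VPA. Each VPA array was below each MC array (log2 -0.46, 95% interval -0.65 to -0.26, adjusted p = 0.00124). Aldoa, the ubiquitous form, read 4224, 4005 and 3809 with MC and 4712, 5047 and 4295 with VPA, a small rise (log2 0.22, 95% interval 0.054 to 0.39, adjusted p = 0.0284) that lost the call without MC replicate 2 or 3 or VPA replicate 1 or 2 (adjusted p 0.0585 to 0.108). Of 4 further Aldoa probe sets 1 passed (log2 0.26). Tpi1, which interconverts the triose phosphates, differed by 0.12 (adjusted p = 0.273).

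In the lower pathway Eno2, the neuron-enriched enolase, read 488, 509 and 401 with MC and 1015, 854 and 947 with VPA. The groups were far apart, at 2.02-fold (log2 1.01, 95% interval 0.79 to 1.24, adjusted p = 8.95e-06). Pgam1, the phosphoglycerate mutase, rose by 0.21 (adjusted p = 0.00771). Pgk1 differed by 0.096 (adjusted p = 0.281) and Pkm, the pyruvate kinase, by -0.007 with a 95% interval of -0.12 to 0.11. A second Pgk1 probe set did pass (log2 0.18, adjusted p = 0.00685). Of the lactate dehydrogenase subunits, Ldha read 7520.4, 9207 and 8013 with MC and 7324, 8061 and 7407 with VPA. The arrays overlapped (log2 -0.11, 95% interval -0.27 to 0.042, adjusted p = 0.201), and Ldhb differed by 0.043 with an interval of -0.065 to 0.15.

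Both pyruvate dehydrogenase kinases, which keep pyruvate out of mitochondrial oxidation, rose. Pdk1, a HIF-1 target, read 479, 514 and 432 with MC and 661, 549 and 759 with VPA, without overlap (log2 0.46, 95% interval 0.20 to 0.72, adjusted p = 0.00659). Pdk3 read 773, 802 and 782 with MC and 995, 922 and 965 with VPA, also without overlap (log2 0.29, 95% interval 0.14 to 0.44, adjusted p = 0.00331). Of 2 further Pdk1 probe sets 1 passed (log2 0.32).

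Of the HIF alpha subunits, the mRNA of Hif1a fell and that of Epas1 (HIF-2 alpha) did not pass. Hif1a read 4875, 5113 and 5419 with MC and 3939, 3852 and 4714 with VPA. The groups were separate (log2 -0.31, 95% interval -0.47 to -0.14, adjusted p = 0.00528), and 2 further probe sets of the gene also fell (log2 -0.40 and -0.33). Epas1 differed by -0.0028, with an interval of -0.25 to 0.24. The arrays measured mRNA and held no value for HIF protein.

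Of the prolyl hydroxylases that act on HIF, Egln3, itself a HIF target, read 278, 295 and 252 with MC and 542, 463 and 461 with VPA. All VPA arrays were above all MC arrays, at 1.78-fold (log2 0.83, 95% interval 0.52 to 1.14, adjusted p = 0.000453). Egln1, the main oxygen sensor, differed by 0.032 with an interval of -0.084 to 0.15.

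Of the secreted targets, Vegfa rose and Adm was low. Vegfa, the endothelial growth factor, read 330.3, 244 and 233 with MC and 385, 308 and 425 with VPA. The groups overlapped through MC replicate 1, and the rise (log2 0.47, 95% interval 0.14 to 0.80, adjusted p = 0.02) lost the call without MC replicate 2 or 3 or VPA replicate 1 or 3 (adjusted p 0.0580 to 0.0871). Adm, the vasodilator adrenomedullin, was too low to be tested. It read 26.4, 36.7 and 28.3 with MC, 68.1, 53.8 and 89.9 with VPA and 63.5, 68.3 and 45.3 with VPM, so that MC lay below both compounds.

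Among intracellular targets, Bnip3, which directs mitochondria to autophagy, read 1870.4, 2386 and 1934 with MC and 3623, 3618 and 4069.8 with VPA. The separation was wide, at 1.84-fold (log2 0.88, 95% interval 0.68 to 1.07, adjusted p = 9.13e-06). Ddit4, an inhibitor of mTORC1, rose by 0.26 (adjusted p = 0.0275) and lost the call without MC replicate 1 or VPA replicate 1 or 3 (adjusted p 0.0560 to 0.117). Ankrd37 differed by 0.34 (adjusted p = 0.112) and Ndrg1 by -0.26 (adjusted p = 0.0952), neither past the threshold. For Ndrg1, 1 of 4 further probe sets passed (log2 -0.34, adjusted p = 0.0316).

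Both collagen prolyl 4-hydroxylase alpha subunits, which hydroxylate collagen in the endoplasmic reticulum, were higher with VPA. P4ha2 read 64.3, 60.2 and 68.9 with MC and 125, 115 and 132 with VPA, a 1.92-fold difference without overlap (log2 0.94, 95% interval 0.53 to 1.35, adjusted p = 0.0013). Every MC and VPM array was under the filter of 100, so the gene was tested only because its 3 VPA arrays were high, and it was not tested without any 1 of them. In the fit with no filter its adjusted p was 0.000174. P4ha1 read 439, 514 and 497 with MC and 682, 634 and 704 with VPA, also without overlap (log2 0.48, 95% interval 0.27 to 0.69, adjusted p = 0.00135).

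Other genes of the same pathways, from lists chosen with results of these data known, gave the setting. Of 20 other glycolysis genes tested, 10 rose and 2 fell with VPA (median 0.24). Over all genes 53.8% were called, 27% higher and 26.8% lower. Slc2a3, the neuronal glucose transporter, read 1623, 1707 and 1539 with MC and 4641, 4574 and 4059 with VPA, a 2.72-fold rise without overlap (adjusted p = 9.73e-08). Pdk2, another pyruvate dehydrogenase kinase, read 449, 491 and 450.3 with MC and 905, 939.9 and 847 with VPA, likewise separate (log2 0.95, 95% interval 0.71 to 1.20, adjusted p = 2.62e-05), and Pdha1 rose by 0.43 (adjusted p = 1.16e-05). None of 6 pentose phosphate genes passed by limma, and 1 had an unadjusted p under 0.05.

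Of 24 other hypoxia targets, 12 rose and 3 fell (median 0.28), beside 27% of all genes higher and 26.8% lower. Stc2, a secreted glycoprotein, read 87.5, 77.7 and 116 with MC and 455, 405 and 322 with VPA, and Ero1a and Higd1a rose by 0.50 and 0.44 on the log2 scale. Of 11 other regulators of HIF, 3 rose and 7 fell (median -0.35). Crebbp, a coactivator that HIF recruits, read 2680.4, 2989 and 2814 with MC and 1242, 1458 and 1459.9 with VPA, all VPA arrays being low (log2 -1.03, 95% interval -1.20 to -0.86, adjusted p = 1.09e-06). The ubiquitin ligases Siah1a and Siah2, which act on the prolyl hydroxylases, went apart, at -0.80 and 0.94, both past the threshold.

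Other lists moved in the same arrays, where 27% of all genes were called higher and 26.8% lower with VPA. Of 7 tested genes of the integrated stress response, 4 rose and 1 fell, led by Sesn2 (40.1, 42.9 and 37.4 with MC, 617, 559 and 535 with VPA). Of 8 glucocorticoid targets, 4 rose and 1 fell. All 7 tested progenitor and cell-cycle genes fell, and their summed signal was 23887 to 25488 with MC, 16542 to 16858 with VPA and 18234 to 19792 with VPM. Of 10 endothelial and pericyte genes 5 fell, with sums of 3002 to 3294, 2225 to 2337 and 3288 to 3865. Of 4 tested erythroid genes 2 fell, with sums of 10939 to 12907, 6564 to 9982 and 2560 to 3200, and Epb42 was under the floor in all MC arrays. Of 8 neuron genes 1 rose and 3 fell, with sums of 43070 to 43805, 39796 to 40845 and 47952 to 51615. Of 5 tested astrocyte genes, a list that does not hold Aldoc, 2 fell, with sums of 4952 to 5919, 3793 to 4124 and 4408 to 5018. The part of these lists in the members' values was not tested.

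VPM at the same dose gave another pattern against the same MC arrays: 3 members rose and 8 fell of 29, with 11.6% of all genes called, 5.65% higher and 5.91% lower. The members' median was 0.026, and the groups did not overlap for 18 of 29 members against 32.8% of all genes. Hk1, Pfkp and Eno2 were the 3 that rose, and Hk2, Aldoc, Tpi1, Pgk1, Pgam1, Pkm, Ldha and Pdk3 fell. Hk1, Eno2, Aldoc, Tpi1, Pgk1, Pgam1 and Ldha each lost the call without at least 1 array. Without MC replicate 2 or VPM replicate 3, the array with the choroid plexus signal, 5 members were called. Without MC replicate 3, VPM replicate 1 or VPM replicate 2, 6 were called, and without MC replicate 1, 9. With the signals as deposited 1 rose and 1 fell. Hk2 was the 1 call present under every alternative, but it has 1 probe set, which the fit with the second probe set used again.

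Hk2 read 371, 350.3 and 405 with VPM, below every MC array (log2 -0.60, 95% interval -0.84 to -0.37, adjusted p = 0.00571). Pfkp read 405, 471 and 372, above every MC array (log2 0.70, 95% interval 0.41 to 1.00, adjusted p = 0.00808). Eno2 read 622, 649 and 591, again above MC without overlap (log2 0.42, 95% interval 0.19 to 0.64, adjusted p = 0.0226), and its adjusted p reached 0.148 over the alternatives. Hk1 read 2591, 2485 and 2954 and rose by 0.29 (adjusted p = 0.0209).

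Tpi1, Pgk1, Pgam1 and Pkm, from the middle and lower pathway, fell with VPM. Pgk1 read 9729.7, 11045 and 8978, under its MC arrays (log2 -0.31, 95% interval -0.47 to -0.16, adjusted p = 0.0164), and Pkm read 7545, 7184 and 7367 (log2 -0.25, 95% interval -0.36 to -0.14, adjusted p = 0.0109). Tpi1 fell by 0.35, Pgam1 by 0.21 and Ldha by 0.26 on the log2 scale (adjusted p = 0.0286, 0.0355 and 0.0362). Pdk3 read 607, 601 and 585, below all MC arrays (log2 -0.39, 95% interval -0.54 to -0.25, adjusted p = 0.0047). Bnip3, Egln3, Vegfa and P4ha2 did not pass: Bnip3 differed by 0.082 (-0.11 to 0.28), Egln3 by 0.22 (-0.089 to 0.54), Vegfa by 0.38 (0.052 to 0.72) and P4ha2 by -0.26 (-0.67 to 0.16). Of the wider lists, 1 of 20 glycolysis genes rose (Slc2a3, 0.27) and 1 fell (Slc2a4, -0.42), 2 of 6 pentose phosphate genes fell (Pgd, -0.40; Rpe, -0.33), and 2 of 24 hypoxia targets fell (Fam162a, -0.37; Higd1a, -0.26). Beside these, 6 of 7 progenitor genes fell and 4 of 8 neuron genes rose, whose part was not tested. Over all genes 5.65% were higher and 5.91% lower with VPM.

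The direct comparison of the acid with its amide, 1 pair of compounds at 1 dose compared in 3 tissues, gave 17 members higher and 2 lower with VPA than with VPM of 29 at E14.5. Of all genes 54.5% were called, 27.5% higher and 27% lower, and the members' median difference was 0.28. The VPA and VPM arrays did not overlap for 21 of 29 members against 60.7% of all genes. The comparisons with MC share their control arrays, so the direct difference is the measure of how the compounds differed.

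Hk2 differed most: VPA arrays read 989, 1197 and 1157 and VPM arrays 371, 350.3 and 405, 2.96-fold apart without overlap (log2 1.57, 95% interval 1.33 to 1.80, adjusted p = 5.91e-07). Pfkfb3 read 386, 354 and 367 with VPA and 805, 768 and 806 with VPM, lower in all VPA arrays (log2 -1.11, 95% interval -1.29 to -0.92, adjusted p = 1.14e-06). P4ha2 read 125, 115 and 132 against 54.1, 52.5 and 55.0, higher with VPA throughout (log2 1.20, 95% interval 0.78 to 1.61, adjusted p = 0.000227), again tested only through its VPA arrays (adjusted p 7.28e-05 with no filter, and log2 0.78 with signals as deposited). Bnip3 differed by 0.79, 95% interval 0.60 to 0.99, adjusted p = 1.8e-05. Its VPM arrays read 2291, 2109 and 2119.8 and lay within the range of MC. Pdk3 differed by 0.68, 95% interval 0.54 to 0.83, adjusted p = 6.62e-06. It was above MC with VPA and below MC with VPM. Egln3 differed by 0.61 (adjusted p = 0.0036), with VPM arrays of 342, 255 and 377 below all VPA arrays.

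Hk1, Pfkp and Eno2, which rose with both compounds against MC, were higher with VPA than with VPM. Eno2 differed by 0.59, 95% interval 0.37 to 0.82, adjusted p = 0.000447. Hk1 differed by 0.29 and Pfkp by 0.44, 95% interval 0.14 to 0.73, adjusted p = 0.0163. The Pfkp difference lost the call without VPA replicate 1 or VPM replicate 3 (adjusted p 0.0698 and 0.0671), with no filter (0.0656) or with the second probe set (0.184), that of Ldhb (0.13) without VPA replicate 2 or 3 or any 1 VPM array, and that of Ddit4 (0.28) without VPA replicate 3 or VPM replicate 1 or 2. Pgk1, Pgam1 and Pkm were also higher with VPA, by 0.41, 0.42 and 0.24, while Ldha did not pass. Ndrg1, a HIF target and differentiation gene, was the other member lower with VPA (-0.42, 95% interval -0.69 to -0.15, adjusted p = 0.012), from VPA arrays of 1814, 1812 and 1780.2 and VPM arrays of 2642, 2119.8 and 2504.

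No difference between the compounds passed for 10 members, and their intervals set how large one could be. For Pfkfb2 the interval was -0.17 to 0.32, for Vegfa -0.24 to 0.42, for Aldoc -0.33 to 0.068, for Hif1a -0.30 to 0.034, for Epas1 -0.41 to 0.082 and for Ankrd37 -0.28 to 0.47. For Egln1 it was -0.14 to 0.096, for Pfkm -0.22 to 0.019, for Pfkl -0.019 to 0.31 and for Ldha -0.0092 to 0.30. A missed threshold does not show that the compounds acted alike on these genes. Of the wider lists, 10 of 20 glycolysis genes were higher with VPA and 1 lower, with Slc2a3 at 1.18 and Pdk2 at 1.21, and 14 of 24 other hypoxia targets were higher and 1 lower, with Stc2 at 1.99. Over all genes 27.5% were higher and 27% lower.

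**Figure D2:**
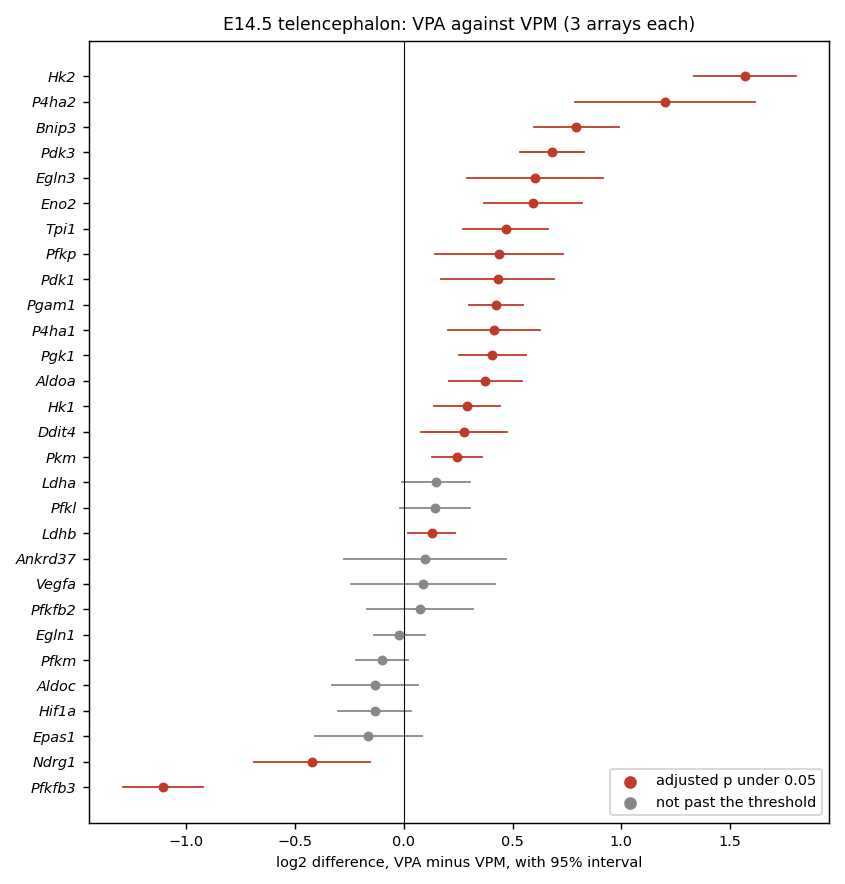
Log2 difference between VPA and VPM arrays at E14.5 (x axis, 3 arrays each) with its 95% interval for the 29 members tested (y axis, ordered by size). Red marks an adjusted p under 0.05; Hk2 is at 1.57 and Pfkfb3 at -1.11, and intervals of the grey genes span 0.

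At E18.5, after no further dosing, few of these differences passed the test. In forebrain, VPA raised 1 of 29 members tested and lowered none, with 2.16% of all genes called, 1.09% higher and 1.06% lower (5 members had an unadjusted p under 0.05). The VPA and MC arrays did not overlap for 7 of 29 members, against 22.3% of all genes. The gene called was Eno2, which read 1237, 1092 and 1128 with MC, 1566, 1478 and 1389.5 with VPA and 1192, 1278 and 1258 with VPM. All VPA arrays were above all others, at 1.28-fold over MC (log2 0.36, 95% interval 0.22 to 0.50, adjusted p = 0.0183). The adjusted p was 0.0575 to 0.0851 without MC replicate 2, MC replicate 3, VPA replicate 1 or VPA replicate 2, and 0.0149 to 1.00 over all alternatives. In the same arrays all 6 tested choroid plexus genes were lower with VPA (median -2.39), with the sums given above, and 5 of 7 progenitor genes were lower; their part in the Eno2 value was not tested.

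Other genes called at E14.5 did not pass in E18.5 forebrain. Hk2 differed by 0.11 (-0.24 to 0.46), Pfkp by 0.23 (0.039 to 0.43), Pfkfb3 by 0.038 (-0.11 to 0.18) and Bnip3 by -0.021 (-0.14 to 0.095). Ndrg1 read 2329, 2568 and 2429.7 with MC and 2907, 2919 and 2703 with VPA, all higher, just short of the threshold (log2 0.22, 95% interval 0.11 to 0.33, adjusted p = 0.0515). Of 20 other glycolysis genes none passed by limma (5 at an unadjusted p under 0.05), and of 25 other hypoxia targets Tfrc rose (0.25) and Car12 fell (-0.89). Over all genes 2.16% were called for VPA against MC. For VPM against MC and VPA against VPM no member passed by limma (0% and 0.53% of all genes called; 6 members at an unadjusted p under 0.05 in each). Adm read 109.9, 188 and 138 in MC and 39.3, 70.7 and 59.2 in VPM arrays, separate but not called (log2 -1.37, 95% interval -2.03 to -0.71, adjusted p = 0.575).

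In E18.5 hippocampus no member passed for VPA against MC, VPM against MC or VPA against VPM by limma, with 0%, 0.00867% and 0% of all genes called. At an unadjusted p under 0.05 there were 3, 9 and 5 members, and the arrays did not overlap for 4, 11 and 8 of 30, against 17.8%, 15.5% and 22.1% of all genes. Hk2 read 458, 365 and 436 with MC, 326, 319 and 374 with VPA and 288, 311 and 308 with VPM, and the VPM arrays were below MC without passing (log2 -0.47, 95% interval -0.71 to -0.22, adjusted p = 0.346). P4ha1 differed with VPA by -0.34, 95% interval -0.52 to -0.16, adjusted p = 0.179. Choroid plexus sums ranged widely over these arrays, as given above.

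The VPA effect itself differed between E14.5 telencephalon and E18.5 forebrain for 16 of 30 members, 13 more positive and 3 more negative at E14.5, with 37.5% of all genes called (19.4% and 18.1%) and a members' median of 0.27. This was the test of the difference of differences in 1 fit over all arrays. Bnip3 had the smallest adjusted p, with a difference of 0.90, 95% interval 0.71 to 1.09, adjusted p = 1.19e-10. Hk2 differed by 0.85, 95% interval 0.53 to 1.17, adjusted p = 2.66e-05, Pfkp by 0.91, 95% interval 0.58 to 1.23, adjusted p = 1.27e-05 and Hk1 by 0.51, 95% interval 0.36 to 0.65, adjusted p = 2.8e-07. Eno2, the gene called at both ages, still had the larger effect at E14.5 (0.65, 95% interval 0.43 to 0.88, adjusted p = 8.8e-06). Pfkfb3 (-0.98), Aldoc (-0.54) and Ndrg1 (-0.48) were the 3 more negative at E14.5. With deposited signals 4 were more positive and 2 more negative, and with the second probe set 8 and 2. Hk1 and Ndrg1 lost the call with deposited signals (adjusted p 0.0801 and 0.189). So did Egln3, P4ha2, Vegfa, P4ha1, Ddit4, Aldoa, Pfkfb2 and Adm (adjusted p 0.0594 to 0.726). With the second probe set Pfkfb3 lost it (log2 -0.69, adjusted p 0.0585), as did P4ha1, Aldoa, Adm and Vegfa (adjusted p 0.119 to 0.282). Pfkfb2 was -0.30 with that probe set. Over single arrays left out, the count ran from 12 to 18, with Aldoa, Ddit4, Pfkfb2, Adm and P4ha2 lost in at least 1. The dissected tissue also differed between the ages. In E18.5 forebrain the choroid plexus sums were 17917 to 25604 with MC and 515 to 4828 with VPA, and their part in these differences was not tested. Between E18.5 hippocampus and forebrain the difference in VPA effect passed for none of 30 members by limma (0.119% of all genes; 2 at an unadjusted p under 0.05).

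**Figure D3:**
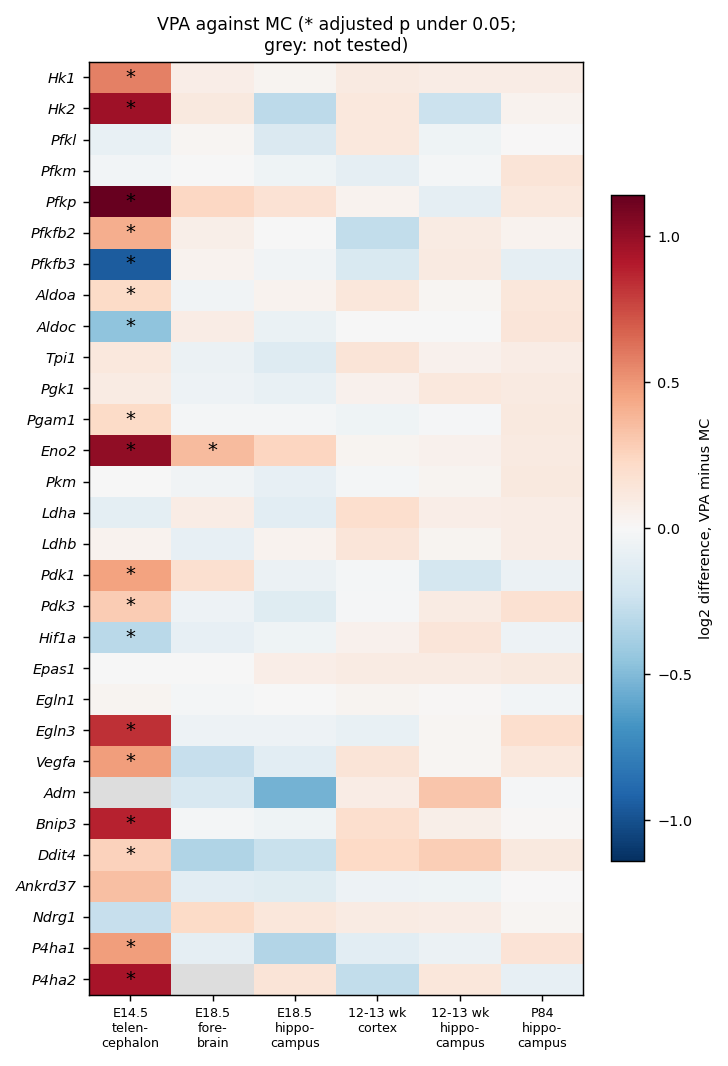
Colour shows the log2 difference between VPA and MC arrays (scale at right) for each member (rows) in the 6 sets of age and tissue (columns; 3 arrays a group, 4 at P84). Stars mark an adjusted p under 0.05: there are 18 at E14.5, 1 at E18.5 in forebrain (Eno2) and 0 in the other sets, and grey cells were too low to test.

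In adults no member was called for any treatment or running contrast. In hippocampus at 12 to 13 weeks, VPA against MC, running against not running in MC or in VPA offspring, VPA against MC among runners, and the interaction gave 0 of 30 members each by limma, with 0% of all genes called. At an unadjusted p under 0.05 there were 2, 3, 6, 0 and 1 members. Hk2 read 316, 290.3 and 324 with MC and 269.7, 256 and 258 with VPA, a difference of -0.25, 95% interval -0.46 to -0.03, adjusted p = 0.419. Pfkp read 2762, 2756 and 2590.4 with VPA and 3168, 3259 and 2969 with VPA and the wheel, higher in every running array without passing (log2 0.21, 95% interval 0.10 to 0.32, adjusted p = 0.238).

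In adult cortex the same 5 contrasts gave 0 of 30 members by limma (0.00735%, 0.0147%, 0%, 0.022% and 0% of all genes called; 4, 5, 1, 4 and 3 members at an unadjusted p under 0.05). Ldha in the vehicle groups read 5222, 5013 and 4663 without and 6379, 6287 and 5653 with the wheel. The running arrays were all higher, and the difference did not pass (log2 0.30, 95% interval 0.16 to 0.44, adjusted p = 0.123); without MC+RW replicate 3, 1 member was called. Bnip3 read 4163, 3687 and 4119 with MC and 4483, 4542 and 4656 with VPA (log2 0.19, 95% interval 0.069 to 0.32, adjusted p = 0.32).

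In P84 hippocampus, the set with 4 arrays a group, 0 of 30 members passed for VPA against MC by limma (0% of all genes called; 3 at an unadjusted p under 0.05). The members' median was 0.09 (all genes -0.0035), with 24 of 30 above 0, a share not counted over all genes. It was 0.03 with quantile normalization (all genes -0.0018). With the signals as deposited it was -0.09, where the median of all genes moved by -0.18. Pfkm read 2779, 2885, 3009 and 2945 with MC and 3242, 3315, 3316 and 3031 with VPA (log2 0.15, 95% interval 0.052 to 0.25, adjusted p = 0.902). Eno2 differed by 0.10 (-0.024 to 0.23), Hk2 by 0.038 (-0.17 to 0.25) and Bnip3 by 0.011 (-0.093 to 0.11). The difference in VPA effect between this set and the 12 to 13 week hippocampus passed for none of 30 members by limma (0.0586% of all genes; 2 at an unadjusted p under 0.05).

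**Figure D4:**
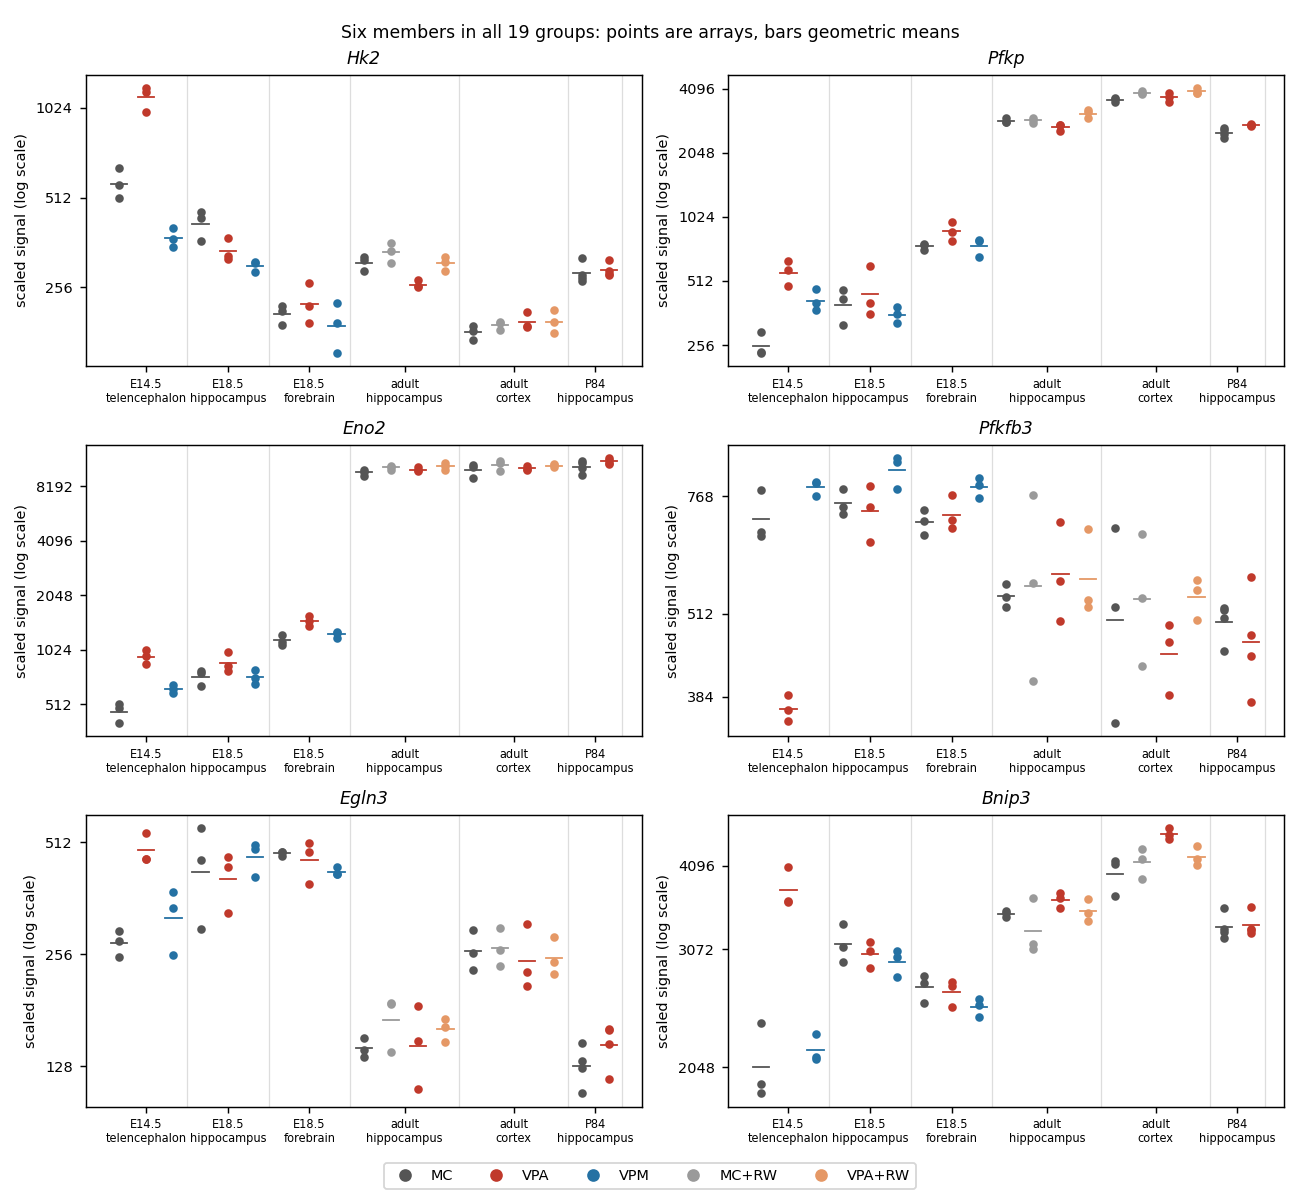
Scaled signal (y axis, log scale) of Hk2, Pfkp, Eno2, Pfkfb3, Egln3 and Bnip3 in every array of the 19 groups (x axis, by tissue and age), with points for arrays, bars for geometric means and colour for treatment. The VPA arrays part from MC at E14.5 for all 6 genes, and Eno2 reaches 9055 to 10721 in adult cortex MC arrays.

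Vehicle arrays were compared across ages, with tissue that changed from whole telencephalon to forebrain to adult cortex. Choroid plexus sums were 232 to 327 at E14.5, 17917 to 25604 in E18.5 forebrain and 998 to 1067 in adult cortex. Age and dissected tissue therefore cannot be told apart, and the part of choroid plexus was not tested. MC samples were 1 of 3 female at E14.5 and 2 of 3 in E18.5 forebrain, while adult samples were male. From E14.5 telencephalon to E18.5 forebrain, 12 members rose and 6 fell of 29 (65.2% of all genes called, 34% higher and 31.2% lower; members' median 0.05, all genes 0.01). With deposited signals, where the median of all genes moved by 0.44, 19 rose and 1 fell. These MC arrays at E14.5 are also the controls of the VPA comparison, so the directions are given side by side only.

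Hk1 and Hk2 went apart between these ages. Hk2 read 509, 642 and 564 at E14.5 and 191, 213 and 222 at E18.5, a 2.74-fold decline without overlap (log2 -1.45, 95% interval -1.68 to -1.23, adjusted p = 1.25e-15). Hk1 read 2119.5, 2203 and 2245 at E14.5 and 4284, 4181 and 4097 at E18.5, a rise of 0.94 (adjusted p = 1.38e-20). Pfkp rose from 295, 237 and 235 to 757, 761 and 718, or 2.93-fold (log2 1.55, 95% interval 1.32 to 1.78, adjusted p = 2.52e-16). Eno2 rose from the E14.5 values to 1237, 1092 and 1128, or 2.48-fold. Beside the VPA effect at E14.5, Hk1 had 0.58 with VPA and 0.94 with age, Pfkp 1.14 and 1.55, Eno2 1.01 and 1.31, Aldoc -0.46 and -0.53, and Hk2 0.96 and -1.45. Pdk3, like Hk2, rose with VPA and fell with age, while Egln3, Pdk1 and Vegfa rose in both. Both differences subtract the same E14.5 MC arrays. With deposited signals the falls of Aldoc and Pdk3 with age did not pass, as given below.

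Several hypoxia members rose over the same days. Epas1 read 487, 418 and 514 at E14.5 and 874, 1051 and 943 at E18.5, 2.02-fold higher without overlap (log2 1.02, 95% interval 0.84 to 1.20, adjusted p = 6.36e-14), and Vegfa rose to 561, 658 and 568 (log2 1.16, 95% interval 0.87 to 1.45, adjusted p = 1.47e-09). Adm went from near the floor to 109.9, 188 and 138 (log2 2.08, 95% interval 1.48 to 2.69, adjusted p = 4.99e-08), where 2 of the 3 E14.5 arrays were set at 32, so the size depends on that floor. It was tested only because its 3 E18.5 arrays passed the filter; the fit with no filter gave an adjusted p of 3.08e-07, and the second probe set a log2 difference of 1.30. Ankrd37 rose by 1.13, Egln3 by 0.80 and Pdk1 by 0.72. Pkm fell by 0.63 and Pdk3 by 0.74 on the log2 scale, but with deposited signals the values were -0.19 and -0.31 and neither passed (adjusted p 0.123 and 0.161), nor did Aldoc (-0.096, adjusted p 0.520). Pfkl fell by 0.19, a call lost without any 1 MC array of E14.5 or E18.5 forebrain MC replicate 1 (adjusted p 0.0541 to 0.162), and with deposited signals it was 0.24 higher. Of 19 other glycolysis genes 7 rose and 5 fell, and of 23 other hypoxia targets 7 rose and 7 fell, beside 34% of all genes higher and 31.2% lower.

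From E18.5 forebrain to adult cortex 15 members rose and 8 fell of 30 (82.1% of all genes called, 43% and 39.1%), with a members' median of 0.40 against 0.05. On the probe sets used Eno2 rose most, from 1237, 1092 and 1128 to 10394, 9055 and 10721, or 8.72-fold without overlap (log2 3.12, 95% interval 2.96 to 3.29, adjusted p = 1.62e-34). Pfkp rose 4.86-fold to 3647, 3531 and 3693, and Pfkm and Pfkl, the other phosphofructokinases, by 0.81 and 0.73. Aldoc reached 9548, 8647 and 11467 from 3998, 4078 and 4080.4 (log2 1.28, 95% interval 1.10 to 1.45, adjusted p = 2.41e-18), while the astrocyte marker sum rose as given above. The second probe sets gave larger rises, of 4.19 for Aldoc and 3.93 for Pfkp on the log2 scale, so the order of the genes depended on the probe set. The part of cell composition in these age differences was not tested.

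The lactate dehydrogenase subunits crossed. Ldha, which favours lactate formation, fell from 7319.8, 8125 and 7935 to 5222, 5013 and 4663 (log2 -0.65, 95% interval -0.79 to -0.51, adjusted p = 6.78e-12). Ldhb, which favours pyruvate, rose from 3615, 3407 and 3752 to 6803, 6336 and 7635 (log2 0.94, 95% interval 0.79 to 1.10, adjusted p = 2.14e-15). Neither pair of groups overlapped, and in hippocampus the directions were the same, with Ldha at -0.99 and Ldhb at 0.95 from E18.5 to P84.

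The HIF alpha subunits also crossed on the probe sets used. Epas1 rose from 874, 1051 and 943 to 3597, 3330.02 and 3737, 3.72-fold (log2 1.90, 95% interval 1.72 to 2.08, adjusted p = 2.6e-24). Hif1a fell from 4869, 4940.2 and 4783 to 2075, 2075 and 1744 (log2 -1.31, 95% interval -1.45 to -1.18, adjusted p = 1.14e-22). The probe set of Hif1a with the next highest signal gave 0.15 in cortex, 0.19 in P84 hippocampus and 0.30 in adult hippocampus, so the direction of Hif1a with age depended on the probe set. Egln3 fell by 0.87, Egln1 by 0.39 and Ddit4 by 1.44 on the log2 scale, the last from 3847, 3955 and 3733 to 1203, 1655 and 1439. With the second probe set Egln3 was -0.34 and Egln1 -0.073, neither past the threshold (adjusted p 0.119 and 0.578), and Egln1 did not pass with deposited signals either (-0.20, adjusted p 0.220). Hk2 stayed low, at 171, 189 and 182 (log2 -0.21, 95% interval -0.43 to 0.02, adjusted p = 0.0864). In the wider lists 17 of 25 glycolysis genes rose and 3 fell, led by Pdk2 (1.83), Slc2a3 (1.08) and Pdp1 (1.48). Over all genes 43% were higher and 39.1% lower. Of 6 pentose phosphate genes 1 rose and 5 fell (median -1.20), among them Pgls (-1.94), Pgd (-1.54) and Taldo1 (-1.21).

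**Figure D5:**
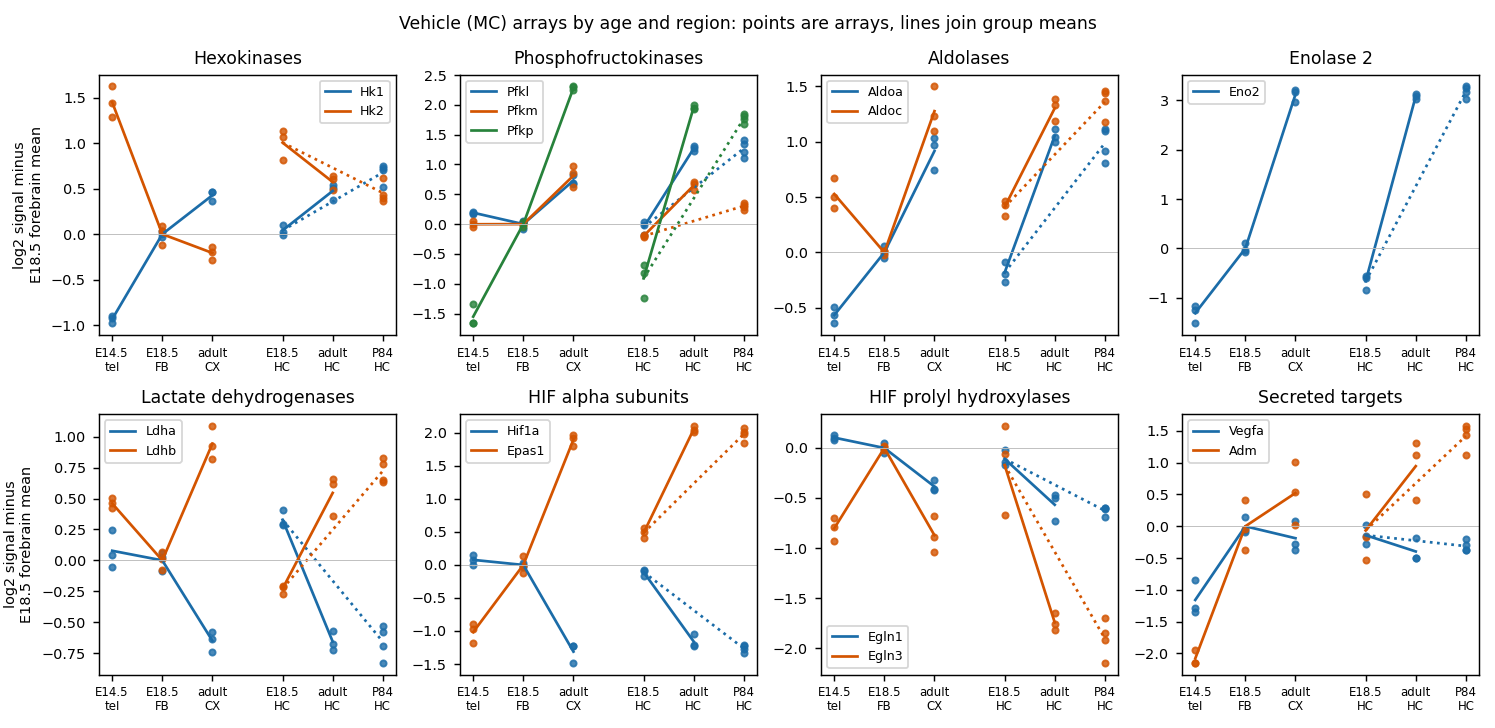
Log2 signal of vehicle arrays minus the E18.5 forebrain mean of the same gene (y axis) by age and region (x axis), with points for arrays (3 a group, 4 at P84) and lines joining group means, dotted to P84. Ldha falls and Ldhb rises into adulthood, Eno2 and Pfkp climb, and Hk2 is highest at E14.5; levels of different genes are not comparable on this scale.

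In hippocampus Eno2 and Pfkp again rose most on the probe sets used, while the second Aldoc probe set gave 3.76 to P84 and 3.92 to 12 to 13 weeks. From E18.5 to P84, 15 members rose and 10 fell of 30 (84.5% of all genes called, 44.6% and 39.9%; median 0.23, all genes 0.07), and to 12 to 13 weeks 16 rose and 9 fell (82.8%, 42.7% and 40%; median 0.27, all genes 0.03). Both share the E18.5 MC arrays, and with deposited signals, where the median of all genes moved by 0.53 and 0.36, the splits were 18 and 3, and 18 and 4. Eno2 read 642, 780.05 and 760.05 at E18.5, 9449, 10334, 10983 and 11219 at P84 and 9349, 10121 and 9864 at 12 to 13 weeks, higher by 3.85 and 3.75 on the log2 scale without overlap. Pfkp rose 6.41-fold and 7.31-fold from 317, 423 and 465. Egln3 fell from 300.1, 559 and 459.6 to 126, 147, 108 and 132 at P84, 3.33-fold lower without overlap (log2 -1.74, 95% interval -2.07 to -1.40, adjusted p = 2.6e-13). Its second probe set gave -0.32 to P84 and -0.30 to 12 to 13 weeks, neither past the threshold (adjusted p 0.120 and 0.167). Hk2 fell by 0.55 and 0.43 on the log2 scale, but deposited signals gave -0.096 and -0.10, which did not pass (adjusted p 0.583 and 0.601), and Epas1 rose by 1.50 and 1.57.

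Other hippocampal calls depended on the probe set or scaling. With deposited signals Pfkfb3, Egln1 and Ankrd37 did not pass at either age, nor Ddit4 at P84, and with the second probe set Pfkfb3 and Egln1 did not. Pgk1 fell by 0.20 to P84, a call lost without E18.5 replicate 3 or P84 replicate 1 or 2, and by 0.39 to 12 to 13 weeks, but the second probe set gave 0.42 and 0.37, quantile normalization gave 0.23 and 0.14, and deposited signals gave 0.25 at P84. Pdk1 fell by 0.40 to P84, whereas the second probe set gave 0.76 and deposited signals 0.056. No direction can be read for Pgk1 or Pdk1 in hippocampus, while the other genes named here lost calls without a change of sign.

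Regions differed within an age as well. At E18.5, 6 members were higher and 5 lower in MC hippocampus than in MC forebrain of 29 (28.4% of all genes called, 13.8% and 14.6%), and with deposited signals, which moved the median of all genes by -0.20, 1 was higher and 6 lower. Hk2 read 458, 365 and 436 in hippocampus and 191, 213 and 222 in forebrain, 2.01-fold higher without overlap (log2 1.01, 95% interval 0.78 to 1.23, adjusted p = 1.08e-09). Pfkp read 317, 423 and 465 in hippocampus and 757, 761 and 718 in forebrain, 1.88-fold lower (log2 -0.91, 95% interval -1.14 to -0.68, adjusted p = 1.81e-08), but the second probe set gave -0.011 (adjusted p 0.967). Eno2 was also lower in hippocampus (-0.67), and Ldha was higher (0.33) with Ldhb lower (-0.23), the last lost without MC forebrain replicate 1 or 3 or MC hippocampus replicate 1 (adjusted p 0.0624 to 0.0951). With deposited signals Ldha was 0.12 and did not pass (adjusted p 0.528). Epas1 was higher by 0.48, but its second probe set gave -0.052 and deposited signals 0.27 (adjusted p 0.259).

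In adults, hippocampus was higher for 2 and lower for 5 of 30 members against cortex (19.7% of all genes called, 9.36% and 10.3%). With deposited signals 2 were higher and 2 lower, and without hippocampus MC replicate 3 the count was 4. Hk2 remained higher in hippocampus, with 316, 290.3 and 324 against 171, 189 and 182 in cortex, 1.72-fold without overlap (log2 0.78, 95% interval 0.55 to 1.01, adjusted p = 3.3e-07). Pfkl was higher (log2 0.54, 95% interval 0.37 to 0.70, adjusted p = 1.02e-06). Egln3 read 141, 152 and 135 in hippocampus and 298, 258 and 232 in cortex, lower in every hippocampal array (log2 -0.87, 95% interval -1.23 to -0.52, adjusted p = 0.000151), and Ldhb was lower by -0.40 (adjusted p = 7.74e-05). Pfkp, Egln1 and Bnip3 were lower by small amounts (-0.32, -0.18 and -0.20). Pfkp lost the call without any 1 of the 6 arrays (adjusted p 0.0602 to 0.0994), Bnip3 without any but cortex MC replicate 2 (0.0525 to 0.127), and Egln1 without cortex MC replicate 2 or hippocampus MC replicate 3 (0.124 and 0.320). None of these 3 passed with deposited signals (adjusted p 0.147 to 0.456).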

How the data were processed

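Total RNA from each sample was hybridised to 1 Affymetrix Mouse Genome 430 2.0 array. The deposited values were used as linear signal intensities, 1 per probe set; the submitters' processing notes name GCOS, while no source used here gives the signal algorithm, the authors' scaling or a build. The platform annotation lists 1 symbol for 34958, several for 932 and none for 9211 of 45101 probe sets. Signals were rescaled so that all arrays shared a 2% trimmed mean of 500, then floored at 32 and put on a log2 scale. Per gene the probe set with the highest mean signal was kept. Genes at 100 or more in at least 3 arrays (4 at P84) were tested with limma 3.58.1 (lmFit, eBayes with trend; R 4.3.3), with Benjamini-Hochberg adjustment over all genes tested and a threshold of 0.05; intervals are 95%. Contrasts within a tissue and age used that set's arrays; those across ages or tissues used all 59 with 19 group terms. The fits were tested on simulated data. The number of arrays limits the precision. The members and lists were chosen with earlier results of these data known. All members could be named in every comparison, and of other lists up to 3 called genes with the smallest adjusted p. Alternatives were quantile normalization, unscaled values, a pseudocount of 32, no filter or a filter at 200, no trend, the second probe set, the groups of the contrast alone, embryo sex, a replicate block and each array left out. In the fit with the second probe set, a gene with 1 probe set kept it. The main fits did not pair samples by replicate number. Same-number correlations ran from -0.098 to 0.130 at E14.5 and from -0.248 to 0.309 over all sets. In no set were all over 0.1. Between E18.5 hippocampus and forebrain the median correlation was 0.064 for same numbers and -0.051 for other numbers. Whether the numbers mark a shared batch was not tested. Promoters came from RefSeq (GRCm38.p6).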

Additional observations from a re-analysis of the deposited data

Results flagged for a closer look

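In P84 hippocampus, single arrays stood apart from the other 3 of their group for 4 members. Hk1 read 6013 in MC replicate 1 against 6850.1 to 7025 in the other MC arrays. Pfkfb2 read 743 in MC replicate 2 against 706 to 711, and Egln1 read 1773 in MC replicate 3 against 1875 to 1885. Bnip3 read 3553 in VPA replicate 3 against 3249 to 3289. These were 4 of 60 groups checked, and chance flags about 1 in 20. No member passed for VPA against MC at P84. Hk1, Pfkfb2 and Egln1 were called between E18.5 and P84 MC hippocampus, and without the array named the log2 difference was 0.69, 0.24 and -0.50, still past the threshold.

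The VPA effect differed between E14.5 telencephalon and E18.5 forebrain for 16 members, each by limma's test of the difference. On the log2 scale it was more positive at E14.5 for Adm by 1.23, P4ha2 by 0.93, Pfkp by 0.91, Bnip3 by 0.90, Egln3 by 0.89, Hk2 by 0.85, Vegfa by 0.74, Eno2 by 0.65, Ddit4 by 0.61, P4ha1 by 0.58, Hk1 by 0.51, Pfkfb2 by 0.35 and Aldoa by 0.26. It was more negative for Pfkfb3 (-0.98), Aldoc (-0.54) and Ndrg1 (-0.48). For Adm, 2 of 3 MC arrays at E14.5 were at the floor, so its size depends on the floor. The second Pfkfb2 probe set gave -0.30. Of these 16 calls, 6 held with deposited signals, and 9 of 15 tested held with the second probe set. Choroid plexus sums in E18.5 forebrain were lower with VPA than with MC, as given above, and their part was not tested.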

How the results depend on the processing

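Over 29 counts of members called and 480 alternative settings, 458 counts were taken as kept. A count above 0 was kept within 1.5 times the reported one, and a count of 0 only if it stayed 0. Many reported counts were 0, among them all treatment and running contrasts in adults, so the total says little about counts above 0. For VPM against MC at E14.5, 11 became 2 with signals as deposited, 3 with no filter and 5 without the intensity trend, and 5 to 9 with single arrays left out. For VPA in E18.5 forebrain, 1 became 2 with quantile normalization or a filter at 200, 0 with signals as deposited or no filter, and 0 to 2 with single arrays left out. For running in adult MC cortex, 0 became 0 to 1. For E18.5 hippocampus against forebrain, 11 became 7 with signals as deposited (9 to 12 with arrays left out), for adult hippocampus against cortex 7 became 4 (4 to 6), and for the difference in VPA effect 16 became 6, or 10 with the second probe set (12 to 18). Of 18 calls for VPA at E14.5, 8 were tested in all 16 alternatives and held in each. So were 14 of 19 between VPA and VPM and 1 of 11 for VPM. Genes with 1 probe set, such as Hk2, Eno2 and Bnip3, were read from it again in the fit with the second probe set. P4ha2, not tested without any 1 VPA array or with a filter at 200, is not among these calls. Nor is Aldoc for VPA against MC, called in 15 alternatives, because its second probe set was not tested. Signs turned with signals as deposited for Pfkl from E14.5 to E18.5 (0.24), and to P84 for Pgk1 (0.25) and Pdk1 (0.056). Quantile normalization turned Pgk1 to P84 (0.23) and 12 to 13 weeks (0.14). The second probe set turned Hif1a in cortex (0.15), P84 (0.19) and adult hippocampus (0.30), Pgk1 (0.42 and 0.37), Pdk1 (0.76), Epas1 between E18.5 regions (-0.052) and Pfkfb2 in the difference of VPA effects (-0.30). The cause was not tested. The main fits did not pair samples by replicate number, yet replicate 3 had the lowest deposited trimmed mean in all 6 E18.5 groups. Whether the numbers mark a shared batch was not tested. With the replicate block, counts were 18, 11 and 19 for the E14.5 comparisons and 15 for the difference in VPA effect. With sex as a covariate the E14.5 counts were 18, 8 and 18. Members near the floor, Adm above all, are limited by signal over background, and 3 arrays a group limit the small differences in adults.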
